A study of Mus musculus with 18 samples.

Results

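The 47 genes described here build the machinery that copies chromosomes in S phase. They were taken by symbol from a fixed list of origin licensing, helicase, polymerase, nucleotide, chromatin assembly and cyclin E genes, and all 47 were found among the 22787 genes of the expression table. They were followed over 18 mouse RNA libraries in 7 groups, named as the sample titles name them. Of these libraries, 12 were granulocyte-monocyte progenitors, the marrow cells that give rise to neutrophils and monocytes, with 3 libraries per genotype: Raptor KO and its Raptor fl/fl control, and Tsc2 KO with its own Tsc2 fl/fl control. Each progenitor library came from 10000 sorted bone marrow cells. The other 6 were DR-ER-Hoxb8 cells, an immortalized myeloid progenitor line kept immature by estradiol. They had been taken off estradiol for 3 days in SCF medium with rapamycin at 100 nM, SL0101-01 at 10 nM or DMSO, with 2 libraries each. Raptor, encoded by Rptor, is a defining subunit of the growth kinase complex mTORC1, and Tsc2 is part of a complex that restrains mTORC1. Rapamycin inhibits mTORC1 and SL0101 is known as an inhibitor of RSK kinases, and neither activity was measured here. The controls of both mouse lines carry the floxed gene. The labels used here do not give the Cre driver, the age of the mice, or whether replicates were separate animals or cultures, so p values measure the spread between these samples, which may be technical.

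In dividing cells each replication origin is licensed in G1, when the origin recognition complex, Cdc6 and Cdt1 load the Mcm2 to Mcm7 helicase onto DNA, and geminin (Gmnn) blocks reloading afterwards. In S phase, Cdc45 and the GINS complex activate the helicase, primase and the polymerases copy the strands, and the PCNA clamp, Fen1 and Lig1 complete the lagging strand. Many of these genes are transcribed by E2F factors once cyclin E and its kinase have inactivated the retinoblastoma protein. Their RNA is therefore often read as a mark of cycling cells, and myeloid precursors stop dividing as they mature. In a bulk sample, fewer cells of a type and less RNA per cell cannot be told apart.

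The progenitor libraries held 2.48 to 3.52 M fragments and the Hoxb8 libraries 2.31 to 3.30 M. Values below are fragments per gene divided by the library's size factor, as the authors deposited them. They were tested in limma on log2 of the value plus 1, a scale that slightly understates changes of low genes. An adjusted p under 0.05, by the Benjamini-Hochberg method over all genes tested, counts as passing. The targeted gene Tsc2 had values of 103, 99.03 and 83.0 in Tsc2 KO libraries, against 269, 235 and 241 in Tsc2 fl/fl libraries, and fell by 1.38 on the log2 scale (SE 0.18, adjusted p = 1.69e-04). Rptor had 61.5, 58.7 and 69.5 in Raptor KO libraries, against 88.0, 78.6 and 86.8 in Raptor fl/fl libraries. That difference of -0.41 did not pass (SE 0.24, adjusted p = 0.377), although the groups did not overlap. The sources used here do not name the deleted exons, so a value per gene does not check the Raptor deletion.

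Some libraries stood apart by cell markers. Over 12 erythroid genes, the summed value was 2134 to 2703 in Raptor KO libraries, against 4298 to 4799 in Raptor fl/fl libraries. In the Tsc2 line the same sum was 13130, 26027 and 23510 in the KO libraries, against 3366, 11019 and 5899 in the fl/fl libraries. Tsc2 fl/fl replicate 2 thus had the highest erythroid sum of the 6 control libraries. Over 11 genes of granulocyte-monocyte progenitors the sum was 40889, 8773 and 13135 in Tsc2 KO libraries, against 79154, 37099 and 83332 in Tsc2 fl/fl libraries. These genes were present in every progenitor library, at 64650 to 67488 in Raptor KO libraries and 71315 to 82089 in Raptor fl/fl libraries. The Tsc2 KO and Tsc2 fl/fl libraries numbered 2 carried Ddx3y, a gene of the Y chromosome, at 113 and 130, and the other 10 progenitor libraries had none. The sums over 7 macrophage genes were 330 to 887 in Raptor KO and 453 to 719 in Tsc2 KO libraries. The controls had 116 to 197 in the Raptor line and 16.9 to 71.5 in the Tsc2 line. Much of both KO sums was Gpnmb, with means of 384 in Raptor KO and 407 in Tsc2 KO, against 1.87 and 0.56 in their controls. Of the 7 fold changes, 4 were positive and 3 negative in Raptor KO, and all 7 were positive in Tsc2 KO. The sums over 8 B lymphoid genes were 106 to 148 in Raptor KO and 20.7 to 74.2 in Tsc2 KO libraries. The controls had 740 to 1067 in the Raptor line and 328 to 539 in the Tsc2 line. Over 5 megakaryocyte genes the sums were 395 to 448 in Raptor KO and 141 to 164 in Tsc2 KO libraries. Their controls had 845 to 1182 in the Raptor line and 345 to 713 in the Tsc2 line. The part of these other cells in the results below was not tested.

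The replication genes stood lower in Raptor KO progenitors and higher in Tsc2 KO progenitors. Together they took 0.721%, 0.713% and 0.751% of the signal in Raptor KO libraries, against 0.916%, 0.916% and 0.873% in Raptor fl/fl libraries. They took 1.10%, 1.28% and 1.23% in Tsc2 KO libraries, against 0.929%, 1.20% and 0.892% in Tsc2 fl/fl libraries. The groups of the Raptor line did not overlap, whereas Tsc2 fl/fl replicate 2 lay above Tsc2 KO replicate 1. In Hoxb8 cells they took 0.626% and 0.655% with rapamycin, 0.879% and 0.909% with SL0101, and 0.694% and 0.668% with DMSO. The SL0101 libraries were the highest of the line and the rapamycin libraries the lowest. Of the 47 genes, 28 passed in at least 1 of 6 comparisons, as did 34.3% of the 11334 genes tested in both kinds of cell. The heat map of all members shows the same order library by library.

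**Figure D1:**
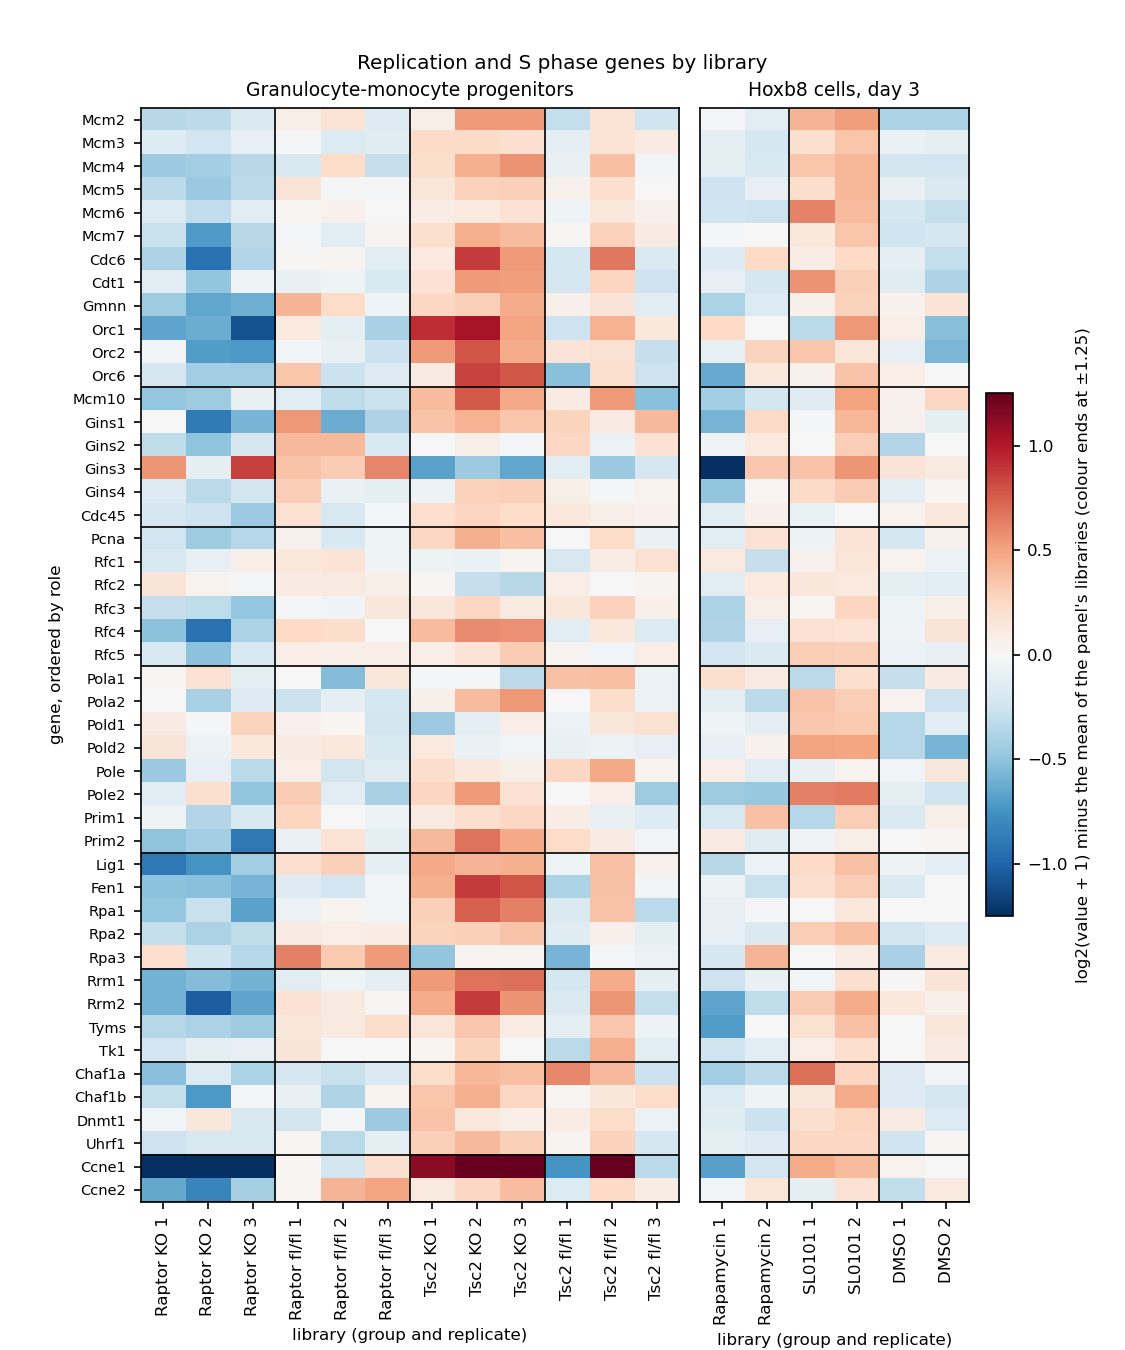
Each row is a replication gene, ordered by role from licensing (top) to cyclin E (bottom), and each column a library. Colour is log2 of the value plus 1 minus the mean of the libraries in that panel. Most rows are blue in the 3 Raptor KO columns and red in the 3 Tsc2 KO columns, and Tsc2 fl/fl replicate 2 is redder than the other Tsc2 fl/fl columns. In the right panel the 2 SL0101 columns are mostly red.

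Of the 47 genes, 8 fell and none rose in Raptor KO progenitors against Raptor fl/fl, where 3.94% of all 13237 genes tested passed, 2.42% downward and 1.53% upward. The median log2 fold change of the 47 was -0.32, beside 0.03 over all genes tested, and 41 of 47 fold changes were negative. In limma, 25 were lower and 0 higher at an unadjusted p under 0.05. At an adjusted p under 0.05, limma with voom weights gave 5 lower and 0 higher. In 27 genes every Raptor KO library lay below every Raptor fl/fl library, against 13.1% of all genes, and in 0 above, against 13.3%. In Tsc2 KO progenitors against Tsc2 fl/fl, 9 rose and none fell, where 5.26% of all genes rose and 7.12% fell. The median was 0.22, beside -0.02 over all genes, and 40 of 47 were positive. Before adjustment, at p under 0.05, 18 were higher and 0 lower in limma. Voom weights gave 6 higher and 0 lower at an adjusted p under 0.05. In 17 genes every Tsc2 KO library lay above every Tsc2 fl/fl library, against 14.6% of all genes. Rfc4, Rrm2 and Rpa2 passed in both knockouts, downward in Raptor KO and upward in Tsc2 KO. The lines have no library in common, but their spread was estimated jointly.

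The 2 knockout effects also differed when the difference itself was tested. The Raptor KO effect minus the Tsc2 KO effect passed below 0 for 20 members and above 0 for none, where 6.44% of all genes passed below 0 and 5.99% above. Its median over members was -0.57, beside 0.08 over all genes, and 42 of 47 were negative. Without adjustment, at p under 0.05, 27 members were below 0 and 0 above in limma. Voom weights gave 17 below 0 and 0 above at an adjusted p under 0.05. The plot of both fold changes shows this for each gene.

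**Figure D2:**
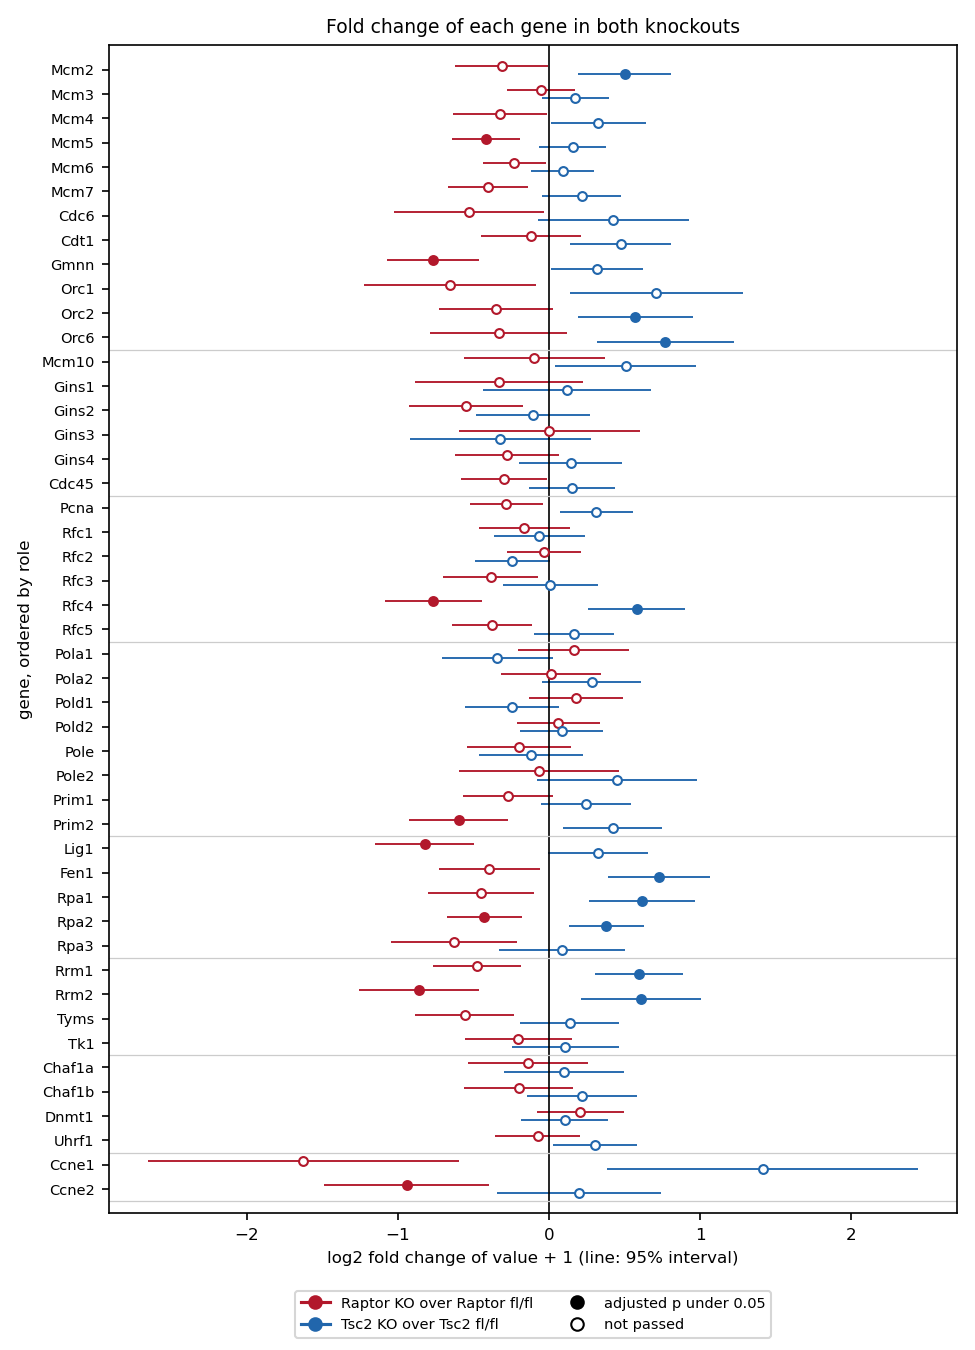
Points are log2 fold changes of each replication gene in Raptor KO over Raptor fl/fl (red) and Tsc2 KO over Tsc2 fl/fl (blue), with 95% intervals, from 3 libraries a group. Filled points passed at an adjusted p under 0.05. Red points lie mostly left of 0 and blue points right of it, with Ccne1 farthest out on both sides at -1.62 and 1.41, neither of which passed.

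These counts leaned on single libraries. With 1 library left out, the members lower in Raptor KO numbered 3, 3 and 5 without Raptor fl/fl replicates 1, 2 and 3, and 5, 2 and 3 without Raptor KO replicates 1, 2 and 3. The members higher in Tsc2 KO numbered 16 without Tsc2 fl/fl replicate 2, the library with the high erythroid sum, and these included all 9. They numbered 1 without Tsc2 fl/fl replicate 1, 1 without replicate 3, 2 without Tsc2 KO replicate 2 and 1 without Tsc2 KO replicate 3. Without Tsc2 KO replicate 1, 11 members passed: all 9, with Cdt1 added upward and Rfc2 downward. Without both Tsc2 line libraries numbered 2, the members higher in Tsc2 KO were 9, of which 7 were among the original 9. When each line was fitted alone, 15 members fell in Raptor KO and 0 rose in Tsc2 KO. Gene by gene, the Raptor KO calls of Gmnn and Lig1 held with any 1 library left out, that of Rfc4 was lost in 1 of 6 such fits and that of Rrm2 in 4, and those of Mcm5, Prim2, Rpa2 and Ccne2 were lost in all 6. The Tsc2 KO call of Fen1 held in all 6, that of Rrm1 was lost in 3, and those of the other 7 were each lost in 4. Of the 20 calls in the difference, 10 held with any 1 of 12 libraries left out.

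Licensing genes are the largest group here, with 12 members. All 12 had negative fold changes in Raptor KO and positive ones in Tsc2 KO, and 8 of 12 passed in the test of the difference. Gmnn, the inhibitor of Cdt1, had 242, 209 and 215 in Raptor KO libraries, against 441, 386 and 318 in Raptor fl/fl libraries. It fell by 0.77 (SE 0.15, adjusted p = 0.00599), and every KO library lay below the lowest control. In Tsc2 KO libraries Gmnn had 395, 406 and 455, against 343, 369 and 298 in Tsc2 fl/fl libraries, a difference of 0.32 that did not pass (adjusted p = 0.168). Mcm5, a helicase subunit, had 973, 893 and 983 in Raptor KO libraries, against 1377, 1213 and 1218 in Raptor fl/fl libraries, and fell by 0.42 (SE 0.11, adjusted p = 0.0355). The Mcm5 call was lost without any 1 of those 6 libraries.

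Mcm2, another helicase subunit, had 1129, 1551 and 1556 in Tsc2 KO libraries, against 873, 1213 and 908 in Tsc2 fl/fl libraries. It rose by 0.50 (SE 0.15, adjusted p = 0.0320), although fl/fl replicate 2 lay above KO replicate 1. Orc6, an origin recognition subunit, had 281, 466 and 444 in Tsc2 KO libraries, against 180, 299 and 217 in Tsc2 fl/fl libraries, with a rise of 0.77 (SE 0.22, adjusted p = 0.0264) and overlapping groups. Exons of Orc6 overlap those of Vps35 on the other strand, and Vps35 also rose, by 0.91 (adjusted p = 4.36e-04). The sources used here do not say whether counting used strand, so reads of the overlap cannot be assigned, and the values of Orc6 are uncertain. The same holds for Orc2, Mcm7, Rfc2, Rfc4, Rfc5, Fen1, Tk1, Chaf1a, Gins2 and Ccne2, each of which overlaps another gene. Of their partners, Cops6, which overlaps Mcm7, also passed in the test of the difference, at -0.67 (adjusted p = 0.0283). Eif4a2, which overlaps Rfc4, passed there in the direction opposite to Rfc4, at 0.81 (adjusted p = 0.00448). Orc2, also of the origin complex, had 462, 548 and 439 in Tsc2 KO libraries, against 356, 364 and 261 in Tsc2 fl/fl libraries, and rose by 0.57 (SE 0.18, adjusted p = 0.0451) without overlap. Orc1, the origin subunit that leaves chromatin in S phase, had 101, 109 and 74.8 in Tsc2 KO libraries, against 44.2, 71.9 and 58.3 in Tsc2 fl/fl libraries. It had 33.3, 34.2 and 24.4 in Raptor KO libraries, against 57.7, 49.0 and 39.8 in Raptor fl/fl libraries. Neither Orc1 difference passed alone (adjusted p = 0.0949 and 0.188), while the test between them did, at -1.37 (SE 0.39, adjusted p = 0.0273). Mcm4 and Mcm7 likewise passed in neither knockout alone but in that test, at -0.65 (adjusted p = 0.0495) and -0.62 (adjusted p = 0.0293). The Mcm4 call was lost in 9 of 12 fits with 1 library left out and in 16 of 23 alternatives in all, and the Mcm7 call in 7 of 12 and 9 of 23.

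The loading factors were less even. Cdc6 had 213, 359 and 284 in Tsc2 KO libraries, against 167, 310 and 172 in Tsc2 fl/fl libraries, so that the high control lay within the KO range. Cdt1 had 507, 648 and 644 in Tsc2 KO libraries, against 388, 541 and 375 in Tsc2 fl/fl libraries, a difference of 0.47 (adjusted p = 0.0563). Without Tsc2 fl/fl replicate 2, Mcm4, Cdc6 and Cdt1 were among the 7 further members that passed.

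The 38 members with a promoter in the RefSeq table for GRCm38.p6 were searched for the E2F-like letters TTTGGCGC, TTTCCCGC, TTTGCCGC and TTTCGCGC on both strands. The window ran from 250 bases before to 50 after the first listed start of each gene. At least 1 match lay in 12 of 38 member promoters (31.6%) and in 626 of all 27025 promoters (2.32%). Among genes of the expression table outside the member list, it lay in 463 of 16709 (2.77%). By role, matches lay in 7 of 10 licensing promoters, 3 of 6 of polymerases and primase, 1 of 5 of the clamp and loader and 1 of 3 of helicase activation, and in none of the other roles. In the lists of related genes described below, matches lay in 10 of 31 promoters of other replication factors (32.3%). They also lay in 7 of 16 of E2F, retinoblastoma and S phase kinase genes (43.75%). Checkpoint and fork repair genes had 4 of 15 (26.7%), and other deoxynucleotide genes 0 of 10. The share was thus not particular to the members. The letters CCAAT lay on either strand in 25 of 38 member promoters (65.8%) and in 37.9% of all promoters. The member promoters also held more CG pairs than the table at large, with a median of 22.5 against 7, so base composition differs between the sets. For the genes of the expression table outside the member list, the median was 14. The promoters below are those of the 4 members that passed in at least 4 comparisons and of Mcm6, which had the most E2F-like matches, 3. They are given 5′ to 3′ on the gene's own strand, with both kinds of match in capitals. Mcm5 lies at chr8:75109259-75109558 on the plus strand, with overlapping E2F-like matches that begin at -153 and -149 from the start. Mcm6 lies at chr1:128359656-128359955 on the minus strand, with matches at -110, -106 and -47. Mcm2 (chr6:88898731-88899030, minus), Rrm2 (chr12:24708004-24708303, plus) and Rpa2 (chr4:132768110-132768409, plus) hold CCAAT matches only. No match says only that these letters are not in the window.
Mcm5: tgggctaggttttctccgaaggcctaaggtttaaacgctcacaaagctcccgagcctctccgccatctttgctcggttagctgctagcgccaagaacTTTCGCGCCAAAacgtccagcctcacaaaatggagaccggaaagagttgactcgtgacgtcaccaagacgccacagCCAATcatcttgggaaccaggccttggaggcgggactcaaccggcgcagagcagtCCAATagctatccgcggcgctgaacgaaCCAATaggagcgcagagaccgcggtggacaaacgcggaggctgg
Mcm6: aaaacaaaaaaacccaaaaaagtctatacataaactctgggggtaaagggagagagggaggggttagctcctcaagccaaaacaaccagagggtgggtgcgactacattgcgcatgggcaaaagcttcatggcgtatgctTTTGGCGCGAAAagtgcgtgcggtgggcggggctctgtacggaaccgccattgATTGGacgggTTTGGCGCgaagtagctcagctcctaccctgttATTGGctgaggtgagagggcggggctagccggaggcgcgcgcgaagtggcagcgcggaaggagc
Mcm2: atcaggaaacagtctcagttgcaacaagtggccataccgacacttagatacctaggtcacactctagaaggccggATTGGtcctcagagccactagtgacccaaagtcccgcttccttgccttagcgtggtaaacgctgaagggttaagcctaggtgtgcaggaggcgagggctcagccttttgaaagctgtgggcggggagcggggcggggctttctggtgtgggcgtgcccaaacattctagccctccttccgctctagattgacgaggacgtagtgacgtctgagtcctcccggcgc
Rrm2: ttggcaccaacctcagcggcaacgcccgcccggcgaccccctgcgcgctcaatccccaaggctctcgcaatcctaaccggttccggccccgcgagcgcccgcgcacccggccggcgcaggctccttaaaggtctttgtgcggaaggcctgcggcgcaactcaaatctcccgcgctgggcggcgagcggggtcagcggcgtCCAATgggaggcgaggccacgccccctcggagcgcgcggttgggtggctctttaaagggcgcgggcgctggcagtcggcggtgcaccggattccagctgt
Rpa2: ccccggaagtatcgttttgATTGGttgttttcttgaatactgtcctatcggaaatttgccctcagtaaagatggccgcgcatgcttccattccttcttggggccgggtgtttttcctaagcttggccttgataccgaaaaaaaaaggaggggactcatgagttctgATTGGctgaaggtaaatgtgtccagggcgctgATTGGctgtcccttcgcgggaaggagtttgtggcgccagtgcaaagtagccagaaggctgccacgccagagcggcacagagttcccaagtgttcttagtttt

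Of the 6 genes of helicase activation (Mcm10, Cdc45 and the GINS subunits) none passed in any comparison. In Raptor KO their fold changes had a median of -0.29, with 5 of 6 negative. In Tsc2 KO the median was 0.13, with 4 of 6 positive. Gins3 ran the other way, with 27.2, 31.6 and 27.4 in Tsc2 KO libraries, against 39.9, 31.3 and 37.6 in Tsc2 fl/fl libraries, and did not pass.

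Among the clamp and its loader, Rfc4 passed in both knockouts. Rfc4, a small subunit of the complex that opens the PCNA ring, had 242, 181 and 262 in Raptor KO libraries, against 410, 402 and 343 in Raptor fl/fl libraries. It had 454, 520 and 513 in Tsc2 KO libraries, against 312, 379 and 306 in Tsc2 fl/fl libraries. Neither pair of groups overlapped. Rfc4 fell by 0.77 in Raptor KO (SE 0.15, adjusted p = 0.00885) and rose by 0.58 in Tsc2 KO (SE 0.15, adjusted p = 0.0187). Its exons overlap those of Eif4a2 on the other strand, whose fold changes of 0.15 and -0.66 had the opposite signs. The Eif4a2 change passed in Tsc2 KO (adjusted p = 0.00135) and not in Raptor KO (adjusted p = 0.509). The Rfc4 call in Raptor KO was lost without Raptor KO replicate 2 alone of the 6 libraries. Pcna, the sliding clamp, had 1004, 872 and 922 in Raptor KO libraries, against 1227, 1038 and 1138 in Raptor fl/fl libraries. It had 1417, 1613 and 1534 in Tsc2 KO libraries, against 1182, 1387 and 1117 in Tsc2 fl/fl libraries. Both pairs were separate, neither passed (adjusted p = 0.180 and 0.0824), and the difference between them did at -0.59 (SE 0.16, adjusted p = 0.0237). Rfc1, Rfc2, Rfc3 and Rfc5 passed in neither knockout.

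Polymerase and primase genes had no common direction in Raptor KO. Their median fold change was -0.03 in Raptor KO, with 4 of 8 negative, and 0.17 in Tsc2 KO, with 5 of 8 positive. Prim2, the large primase subunit, was the exception in Raptor KO, with 184, 195 and 140 in KO libraries, against 246, 294 and 241 in fl/fl libraries. It fell by 0.60 (SE 0.16, adjusted p = 0.0394), a call lost without any 1 of these libraries. Prim2 had 347, 419 and 364 in Tsc2 KO libraries, against 307, 280 and 256 in Tsc2 fl/fl libraries, separate groups that did not pass (adjusted p = 0.0854). The catalytic subunits Pola1 and Pold1 had fold changes of 0.16 and 0.18 in Raptor KO and -0.34 and -0.24 in Tsc2 KO, and none of the 4 passed.

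All 5 genes that finish the lagging strand or bind single strands had negative fold changes in Raptor KO, and all 5 separated the groups. Lig1, the ligase that seals Okazaki fragments, had 184, 204 and 254 in Raptor KO libraries, against 397, 423 and 315 in Raptor fl/fl libraries. It fell by 0.82 (SE 0.16, adjusted p = 0.00626), and like Gmnn it passed with any 1 library left out. Rpa2, a subunit of the single-strand binding complex, had 319, 297 and 313 in Raptor KO libraries, against 419, 415 and 416 in Raptor fl/fl libraries. It had 474, 483 and 502 in Tsc2 KO libraries, against 351, 409 and 363 in Tsc2 fl/fl libraries. Rpa2 fell by 0.43 in Raptor KO (SE 0.12, adjusted p = 0.0485) and rose by 0.38 in Tsc2 KO (SE 0.12, adjusted p = 0.0419), and neither pair of groups overlapped. The first call was lost without any 1 of its 6 libraries and the second without 4 of 6. Fen1, the flap nuclease, had 803, 1087 and 1018 in Tsc2 KO libraries, against 448, 759 and 576 in Tsc2 fl/fl libraries. It rose by 0.73 (SE 0.16, adjusted p = 0.00697) and passed without any 1 library, but missed the threshold when the Tsc2 line was fitted alone (adjusted p = 0.0679). Rpa1, the large subunit of the same binding complex, had 567, 772 and 710 in Tsc2 KO libraries, against 407, 588 and 363 in Tsc2 fl/fl libraries, and rose by 0.61 (SE 0.17, adjusted p = 0.0220) with overlap at fl/fl replicate 2.

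Of the 4 nucleotide supply genes, 1 fell in Raptor KO and 2 rose in Tsc2 KO. Rrm2, the small subunit of ribonucleotide reductase that limits deoxynucleotide supply, had 484, 357 and 459 in Raptor KO libraries, against 827, 785 and 737 in Raptor fl/fl libraries. It had 1001, 1336 and 1071 in Tsc2 KO libraries, against 642, 1069 and 592 in Tsc2 fl/fl libraries. Rrm2 fell by 0.86 in Raptor KO (SE 0.19, adjusted p = 0.0185) and rose by 0.61 in Tsc2 KO (SE 0.19, adjusted p = 0.0439). The Raptor groups were separate, and in the Tsc2 line only fl/fl replicate 2 reached the KO range. Rrm1, the large subunit, had 1770, 1959 and 1967 in Tsc2 KO libraries, against 1050, 1685 and 1124 in Tsc2 fl/fl libraries, and rose by 0.59 (SE 0.14, adjusted p = 0.00996). In Raptor KO libraries Rrm1 had 810, 837 and 812, against 1118, 1180 and 1133 in Raptor fl/fl libraries, a separate but unpassed difference of -0.48 (adjusted p = 0.0585). Tyms, which makes thymidylate, was likewise separate in the Raptor line, with 150, 146 and 141 in KO libraries, against 212, 208 and 224 in fl/fl libraries (adjusted p = 0.0513). It passed in the test between the knockouts, at -0.70 (SE 0.22, adjusted p = 0.0456), a call lost in 10 of 12 fits with 1 library left out. Tk1, thymidine kinase, had fold changes of -0.20 in Raptor KO (adjusted p = 0.563) and 0.11 in Tsc2 KO (adjusted p = 0.739), and it passed in no comparison.

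The 4 chromatin and methylation genes (Chaf1a and Chaf1b of the histone chaperone CAF-1, Dnmt1 and Uhrf1) passed in neither knockout nor in the difference. The cyclin E genes drive entry into S phase, and Ccne1 had the largest fold change of the members in each knockout. Ccne1 had 48.1, 56.5 and 70.5 in Raptor KO libraries, against 183, 153 and 207 in Raptor fl/fl libraries. It had 394, 679 and 525 in Tsc2 KO libraries, against 108, 479 and 143 in Tsc2 fl/fl libraries. The Raptor groups lay far apart, and Tsc2 fl/fl replicate 2 lay inside the Tsc2 KO range and above every other control. The difference of -1.62 in Raptor KO (SE 0.46, adjusted p = 0.0831) did not pass in the fit of 4 groups, and passed when the Raptor line was fitted alone (adjusted p = 1.64e-05). The difference of 1.41 in Tsc2 KO (SE 0.46, adjusted p = 0.0750) did not pass, and passed at 2.06 without Tsc2 fl/fl replicate 2 (adjusted p = 3.67e-05). Between the knockouts Ccne1 differed by -3.04 (SE 0.65, adjusted p = 0.0163). Ccne2 had 29.7, 26.0 and 34.8 in Raptor KO libraries, against 47.6, 63.1 and 66.5 in Raptor fl/fl libraries, and fell by 0.94 (SE 0.26, adjusted p = 0.0475), a call lost without any 1 of these libraries. The plot of key genes by library shows these values.

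**Figure D3:**
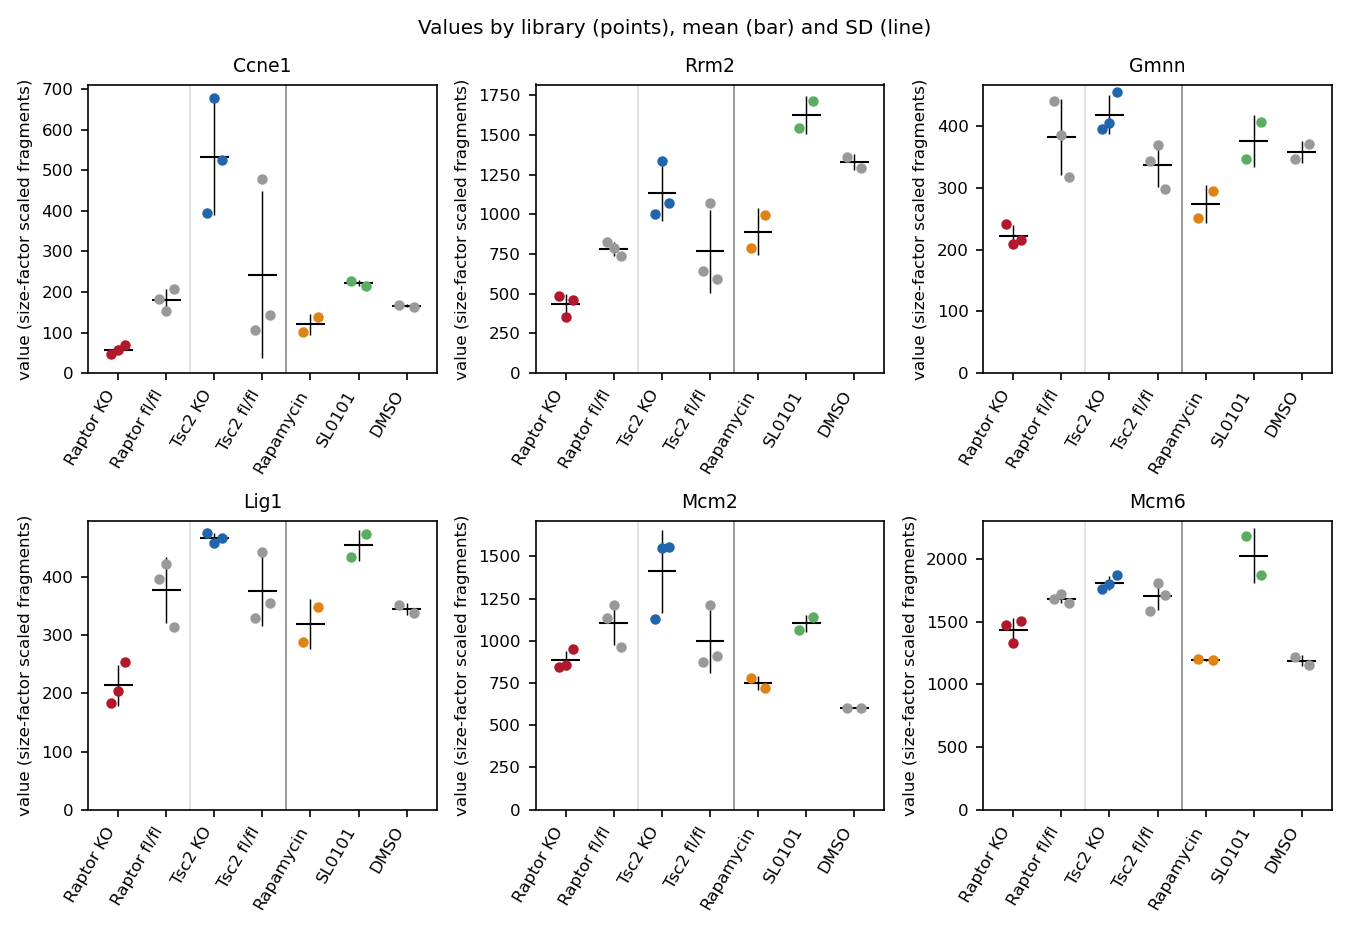
Points are the values of Ccne1, Rrm2, Gmnn, Lig1, Mcm2 and Mcm6 in each library, with the mean (bar) and SD (line) of each group. Axes start at 0 and the scale is fragments divided by the library's size factor. Ccne1 in Tsc2 fl/fl libraries ranges from 108 to 479, and Mcm6 in the 2 SL0101 libraries (2184 and 1871) lies above all other Hoxb8 libraries.

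In Hoxb8 cells, SL0101 went with higher values of the replication genes and rapamycin with few changes. Against DMSO, 11 of 47 members rose and none fell with SL0101, where 5.09% of all 11804 genes tested rose and 5.79% fell. The median log2 fold change was 0.32, beside -0.02 over all genes, and 44 of 47 were positive. At an unadjusted p under 0.05, 20 members were higher and 0 lower in limma. With voom weights, 13 were higher and 0 lower at an adjusted p under 0.05. In 29 members both SL0101 libraries lay above both DMSO libraries, against 26.6% of all genes. Against DMSO, rapamycin lowered 1 member, Rrm2, and raised none, where 6.35% of all genes fell and 5.4% rose. Before adjustment, 4 members were lower and 3 higher in limma at p under 0.05. With voom weights, 1 was lower and 0 higher at an adjusted p under 0.05. The median was -0.07, beside -0.01 over all genes, and it was 0.02 without rapamycin replicate 1. Set directly against SL0101, rapamycin had 12 members lower and none higher, where 8.87% of all genes passed, 4.44% lower and 4.43% higher. Their median was -0.42, beside 0.01 over all genes. In 31 members both rapamycin libraries lay below both SL0101 libraries, against 25.1% of all genes, and in 0 above, against 26.1%. In limma, 27 members were lower and 0 higher at an unadjusted p under 0.05. With voom weights, 23 were lower and 0 higher at an adjusted p under 0.05. The inhibitor comparisons share the DMSO libraries, and the direct comparison shares the libraries of both, so these counts are not independent.

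**Figure D4:**
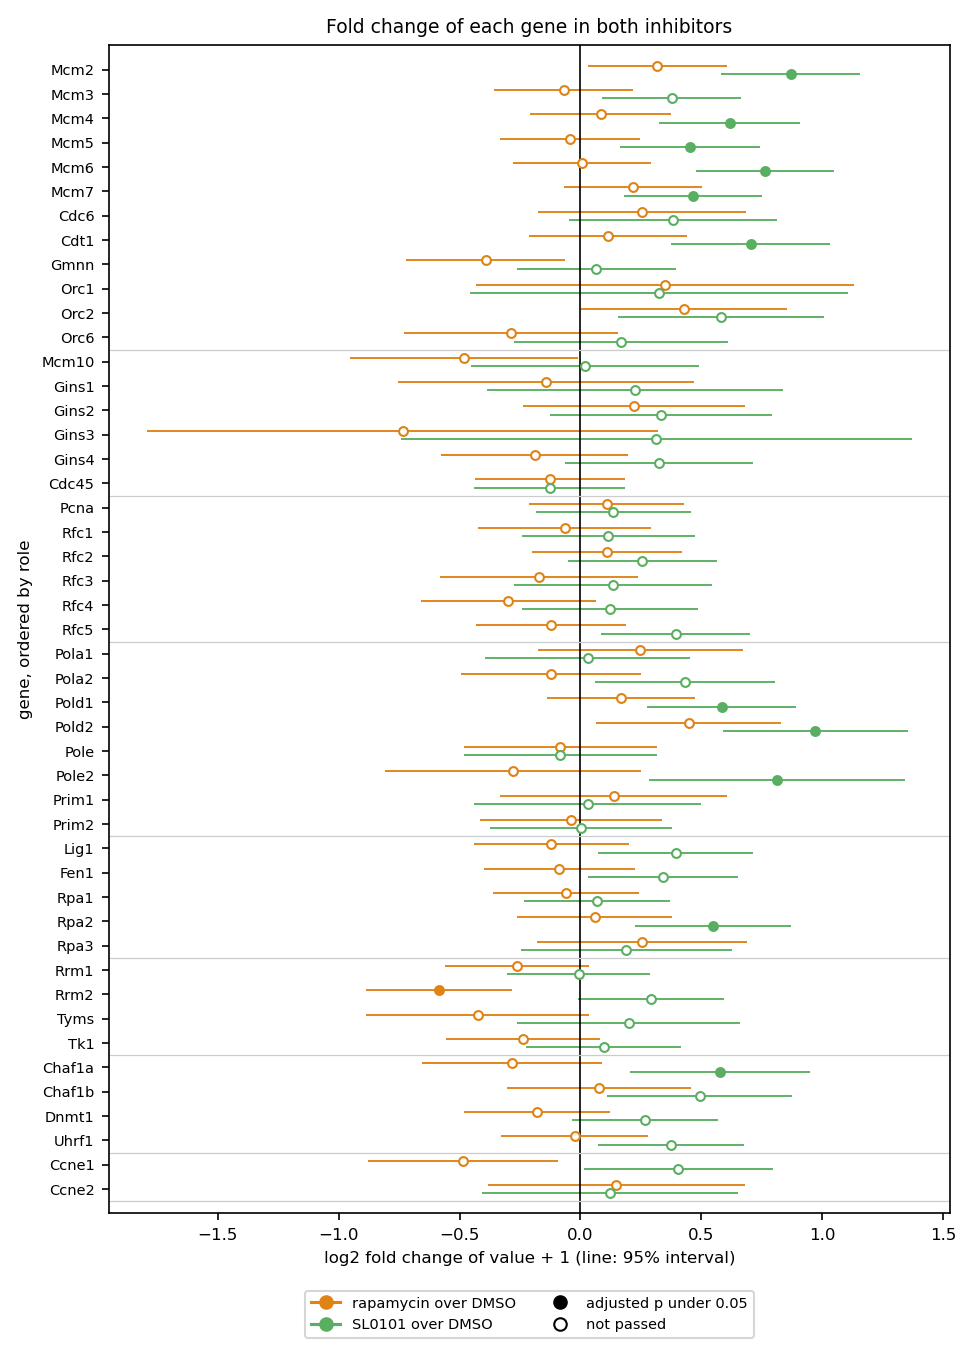
Points are log2 fold changes of each replication gene with rapamycin over DMSO (orange) and SL0101 over DMSO (green), with 95% intervals, from 2 libraries a group. Filled points passed at an adjusted p under 0.05. Green points lie mostly right of 0, with 11 filled, and the only filled orange point is Rrm2 at -0.58.

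With 2 libraries a group, the counts depended on each of them. The members higher with SL0101 than with DMSO numbered 4 and 2 without DMSO replicates 1 and 2, and 4 and 5 without SL0101 replicates 1 and 2. The members lower with rapamycin than with DMSO numbered 5 without rapamycin replicate 2 and 0 without rapamycin replicate 1, DMSO replicate 1 or DMSO replicate 2. Those lower with rapamycin than with SL0101 numbered 1 and 5 without SL0101 replicates 1 and 2, and 8 and 11 without rapamycin replicates 1 and 2. Of the 11 calls with SL0101 over DMSO, those of Mcm2 and Mcm6 held with any 1 of 4 libraries left out. That of Pold2 was lost in 1 such fit, that of Cdt1 in 2, those of Mcm4 and Chaf1a in 3, and those of Mcm5, Mcm7, Pold1, Pole2 and Rpa2 in all 4.

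Licensing genes made up 6 of the 11 members that rose with SL0101. Mcm2 had 782 and 723 with rapamycin, 1067 and 1140 with SL0101, and 602 and 603 with DMSO. It rose by 0.87 with SL0101 over DMSO (SE 0.14, adjusted p = 2.49e-04), passed with any 1 library left out, and was lower by 0.55 with rapamycin than with SL0101 (SE 0.14, adjusted p = 0.0157). With rapamycin over DMSO the difference of 0.32 did not pass (95% interval 0.03 to 0.61, adjusted p = 0.153). Mcm6 had 1199 and 1191 with rapamycin, 2184 and 1871 with SL0101, and 1222 and 1159 with DMSO. The rapamycin and DMSO libraries interleaved, while SL0101 over DMSO gave a rise of 0.76 (SE 0.14, adjusted p = 8.11e-04). Mcm4 had 605 and 573 with rapamycin, 833 and 874 with SL0101, and 556 and 555 with DMSO, with a rise of 0.62 for SL0101 over DMSO (SE 0.14, adjusted p = 0.00581). Cdt1 had 335 and 310 with rapamycin, 532 and 444 with SL0101, and 323 and 275 with DMSO, and rose by 0.70 with SL0101 (SE 0.16, adjusted p = 0.00548). Mcm5 and Mcm7 rose by 0.45 and 0.47 with SL0101 (adjusted p = 0.0397 and 0.0324). Gmnn had 252 and 296 with rapamycin, 346 and 406 with SL0101, and 346 and 371 with DMSO. Both rapamycin libraries lay below both DMSO libraries, and the difference of -0.39 did not pass (adjusted p = 0.123).

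Of the 8 polymerase and primase genes, 3 rose with SL0101 over DMSO. Pold2, the second subunit of polymerase delta, had 142 and 158 with rapamycin, 217 and 214 with SL0101, and 119 and 101 with DMSO, and rose by 0.97 with SL0101 over DMSO (SE 0.18, adjusted p = 0.00136). Pold1, its catalytic subunit, had 425 and 406 with rapamycin, 557 and 553 with SL0101, and 343 and 399 with DMSO, and rose by 0.58 with SL0101 (SE 0.15, adjusted p = 0.0125). Pole2, of polymerase epsilon, had 41.2 and 40.3 with rapamycin, 87.5 and 88.7 with SL0101, and 52.1 and 47.3 with DMSO. It rose by 0.81 with SL0101 over DMSO (SE 0.26, adjusted p = 0.0432) and was lower by 1.09 with rapamycin than with SL0101 (SE 0.26, adjusted p = 0.00999). Chaf1a had 152 and 165 with rapamycin, 333 and 249 with SL0101, and 185 and 201 with DMSO, and rose by 0.58 with SL0101 (SE 0.18, adjusted p = 0.0415). Rpa2 had 271 and 256 with rapamycin, 362 and 380 with SL0101, and 248 and 258 with DMSO, and rose by 0.55 with SL0101 (SE 0.15, adjusted p = 0.0248).

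Rrm2 was the member lower with rapamycin than with DMSO. It had 785 and 998 with rapamycin, 1542 and 1713 with SL0101, and 1363 and 1293 with DMSO. It fell by 0.58 with rapamycin (95% interval -0.89 to -0.28, adjusted p = 0.00932), and the rapamycin libraries lay below all 4 others. With SL0101 over DMSO its difference of 0.29 did not pass (adjusted p = 0.225). Against SL0101 it was lower by 0.88 with rapamycin (SE 0.15, adjusted p = 8.58e-04), the only call of that comparison that held with any 1 library left out. Ccne1 had 102 and 139 with rapamycin, 227 and 216 with SL0101, and 169 and 164 with DMSO, so that the 3 groups were separate. It differed by -0.48 with rapamycin over DMSO (adjusted p = 0.107) and by 0.41 with SL0101 over DMSO (adjusted p = 0.189), neither passing, and was lower by 0.89 with rapamycin than with SL0101 (SE 0.19, adjusted p = 0.00549). Ccne2 had 63.2 and 71.7 with rapamycin, 59.5 and 73.5 with SL0101, and 52.1 and 70.5 with DMSO, groups that overlapped.

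Other cycling genes did not follow the replication genes in every group. Over 12 genes of mitosis, such as Ccnb1 and Plk1, the summed value was 4140, 3834 and 3883 in Raptor KO libraries, against 5341, 4932 and 4922 in Raptor fl/fl libraries. It was 6668, 7318 and 7242 in Tsc2 KO libraries, against 4032, 5915 and 4780 in Tsc2 fl/fl libraries. In Hoxb8 cells it was 4265 and 5859 with rapamycin, 7574 and 7599 with SL0101, and 7752 and 7976 with DMSO. Of the 12, 2 fell in Raptor KO (16.7%, against 2.42% of all genes), 7 rose in Tsc2 KO (58.3%, against 5.26%) and 11 fell with rapamycin over DMSO (91.7%, against 6.35%). With SL0101 over DMSO, 1 fell (8.33%, against 5.79%) and none rose. At an unadjusted p under 0.05 that last comparison also gave 1 lower and 0 higher in limma. In the test of the difference between the knockouts, 9 of 12 mitosis genes passed below 0 (75%, against 6.44% of all genes). Against SL0101, rapamycin had 9 of 12 lower (75%, against 4.44%). In these 2 comparisons, 42.6% and 25.5% of the replication genes passed, also downward. With rapamycin over DMSO, 1 of 47 replication genes and 11 of 12 mitosis genes fell, and the difference between the lists was not tested. The same cells had progenitor marker sums of 61137 and 60382 with rapamycin, 27117 and 34753 with SL0101, and 14019 and 15332 with DMSO. Much of these sums was Mpo, with means of 41158, 17468 and 6470 in that order. Of the 11 fold changes over DMSO, 9 were positive and 2 negative with rapamycin, and 8 and 3 with SL0101. Csf1r had means of 584 with rapamycin, 1051 with SL0101 and 1759 with DMSO, and Irf8 had 44.8, 41.8 and 123. The erythroid sums of these cells were 963 and 1074 with rapamycin, 921 and 1099 with SL0101, and 661 and 706 with DMSO. The globin genes Hba-a1, Hba-a2, Hbb-b1 and Hbb-b2 were at 0 in all 6 libraries. The part of the stage of differentiation in these results was not tested. The plot of summed levels sets the lists side by side.

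**Figure D5:**
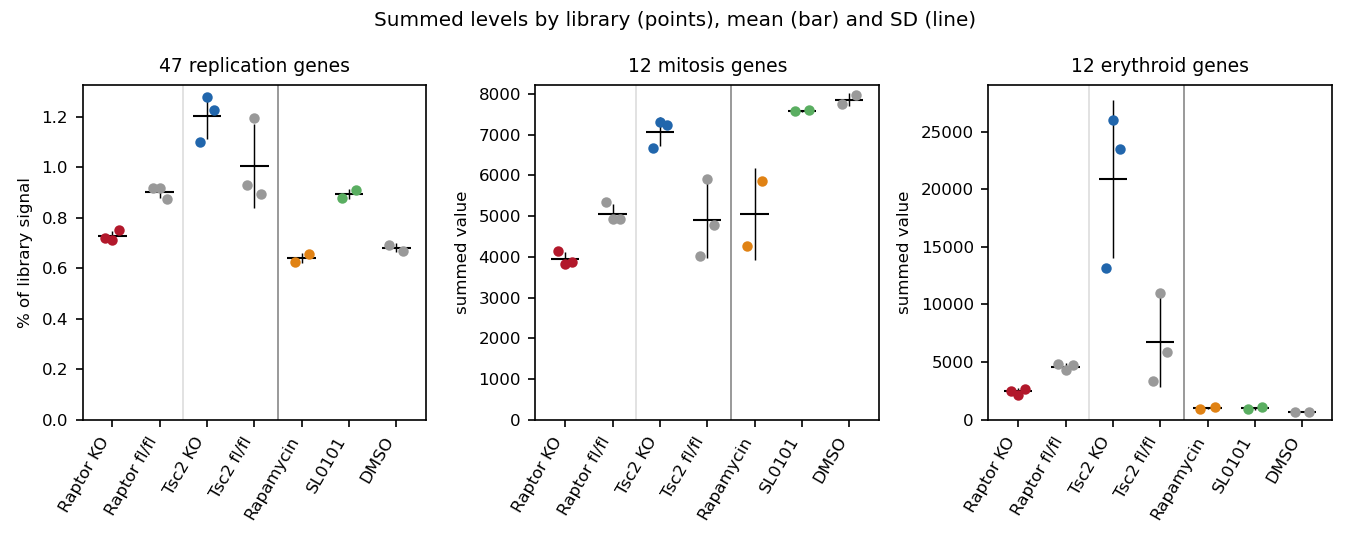
Points are single libraries, with the mean (bar) and SD (line) of each group: the share of all signal taken by the 47 replication genes (left, in percent), and the summed values of 12 mitosis genes (middle) and 12 erythroid genes (right). All 3 are lower in Raptor KO than in Raptor fl/fl libraries, and Tsc2 fl/fl replicate 2 is the highest Tsc2 fl/fl library in each. The mitosis sum is lowest with rapamycin among Hoxb8 groups.

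Further genes of the pathway were taken from 4 lists. Among 35 other replication factors, 3 fell and none rose in Raptor KO, with a median of -0.21, and 3 rose and none fell in Tsc2 KO, with a median of 0.20. These are 8.57% of the list in each knockout. In either direction 3.94% of all genes passed in Raptor KO and 12.4% in Tsc2 KO, so the Tsc2 share is no higher than that. By direction, 2.42% of all genes fell in Raptor KO and 5.26% rose in Tsc2 KO. Asf1b, a histone chaperone, was named in both, at -0.63 in Raptor KO (SE 0.16, adjusted p = 0.0381) and 0.81 in Tsc2 KO (SE 0.16, adjusted p = 0.00399). The others were Rnaseh2c and Rnaseh2b of ribonuclease H2 in Raptor KO, at -0.71 and -0.57, and in Tsc2 KO the origin subunit Orc5 at 0.95 and Slbp, which binds histone RNA, at 0.56. With SL0101 over DMSO, 3 rose (Hells at 1.10, Tipin at 0.60 and Cdca7 at 0.57) and none fell. With rapamycin over DMSO, 3 fell, namely Dna2 at -1.05, Top2a at -0.56 and Asf1b at -0.60, and Rnaseh2a rose by 0.80. The shares of the list that passed, 8.57% with SL0101 and 11.4% with rapamycin, lay below the 10.9% and 11.7% of all genes passing in either direction. By direction, 5.09% of all genes rose with SL0101, and 6.35% fell and 5.4% rose with rapamycin.

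Among 21 genes of the E2F, retinoblastoma and S phase kinase list, 1 passed in Raptor KO (4.76%, against 3.94% of all genes), 3 in Tsc2 KO (14.3%, against 12.4%), 2 with rapamycin over DMSO (9.52%, against 11.7%) and 1 with SL0101 over DMSO (4.76%, against 10.9%). These shares are near or below those of all genes passing in either direction. The 3 in Tsc2 KO all rose, where 5.26% of all genes rose. With rapamycin against SL0101, 5 of 21 were lower and none higher (23.8%), where 4.44% of all genes were lower. E2f2, an activating E2F factor, passed in every comparison. It had 9.20, 14.1 and 19.7 in Raptor KO libraries, against 39.0, 41.3 and 42.2 in Raptor fl/fl libraries, and fell by 1.504 (SE 0.38, adjusted p = 0.0321). It had 98.1, 118 and 110 in Tsc2 KO libraries, against 17.3, 59.2 and 25.4 in Tsc2 fl/fl libraries, and rose by 1.83 (SE 0.38, adjusted p = 0.00466). Like Ccne1, it was highest in replicate 2 among the Tsc2 controls. In Hoxb8 cells E2f2 had 64.2 and 81.7 with rapamycin, 122 and 155 with SL0101, and 268 and 227 with DMSO. It fell by 1.75 with rapamycin (SE 0.20, adjusted p = 3.75e-06) and by 0.84 with SL0101 (SE 0.20, adjusted p = 0.00950), although 11 replication genes rose in the SL0101 libraries. Ccna2, the S phase cyclin A, had 507 and 655 with rapamycin, 1486 and 1158 with SL0101, and 1049 and 1096 with DMSO, and fell by 0.90 with rapamycin (SE 0.16, adjusted p = 4.16e-04). In Tsc2 KO, Ccna2 and Lin54 also rose, by 0.68 and 1.37.

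The 13 other deoxynucleotide genes had no common direction, and 15.4% of them passed in each knockout, where 3.94% of all genes passed in Raptor KO and 12.4% in Tsc2 KO. Dck, which salvages deoxycytidine, had 92.7, 68.4 and 92.1 in Raptor KO libraries, against 137, 170.5 and 185 in Raptor fl/fl libraries, and fell by 0.95 (SE 0.25, adjusted p = 0.0381), and Nme1 fell by 0.51. In Tsc2 KO, Dctd and Shmt1 fell by 0.68 and 0.85 and none rose, with 4 higher at an unadjusted p under 0.05 in limma. With SL0101 over DMSO, 5 rose and 1 fell (46.2%, against 10.9% of all genes). Among them Dut, which removes dUTP, had 340 and 396 with rapamycin, 704 and 597 with SL0101, and 333 and 354 with DMSO, and rose by 0.92 with SL0101 (SE 0.15, adjusted p = 4.06e-04). Shmt1 rose by 1.09, and Samhd1, which breaks down deoxynucleotides, fell by 0.95. Of 20 genes of the replication checkpoint and fork repair, none passed in Raptor KO, in Tsc2 KO or with rapamycin over DMSO. At an unadjusted p under 0.05 in limma, these comparisons gave 1 higher and 0 lower, 6 higher and 0 lower, and 3 higher and 1 lower. With SL0101 over DMSO, 2 of 20 rose and none fell (10%), where 10.9% of all genes passed and 5.09% rose. The mismatch repair gene Msh6 was among those that rose, by 0.69 (adjusted p = 0.00850).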

How the data were processed

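RNA of 18 libraries was made by SmartSeq2 low-input sequencing, per the labels. The deposited values are a signal, the fragments of each gene scaled by a library's size factor. Cuffnorm, Cufflinks 2.2.1, TopHat2 2.0.10 and BWA appear in the submitters' processing notes. The sources used here give neither genome build nor the use of strand. Groups come from the sample titles, since a genotype label of the Tsc2 samples names Raptor.

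Progenitors (12 libraries, 4 groups) and Hoxb8 cells (6 libraries, 3 groups) each had a fit of their own (limma 3.58.1, R 4.3.3). The fits used log2 of the value plus 1, an expression trend and robust variances, with no replicate block. Genes reaching a value of 1 in at least 3 progenitor or 2 Hoxb8 libraries were tested, which kept all 47 members in both fits. Tests were two-sided, with Benjamini-Hochberg adjustment over all genes of a comparison. The fit was tested on simulated data. Every member could be named, those that passed with values per library, along with up to 3 passing genes of each further list in order of adjusted p. The members and lists were chosen with earlier results of these data known. Of the 47, 11 share exons with a gene on the other strand. Promoters come from RefSeq, GRCm38.p6. Pseudocount, filter, scaling, variance model, voom weights, libraries fitted, replicate block and each library were varied.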

Additional observations from a re-analysis of the deposited data

Results flagged for a closer look

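For 20 members, limma's test of the Raptor KO effect minus the Tsc2 KO effect passed at an adjusted p under 0.05, so these members are listed for the difference between the lines. All 20 differences are log2 values below 0. Among licensing genes they were -0.813 for Mcm2, -0.65 for Mcm4, -0.574 for Mcm5, -0.62 for Mcm7, -1.08 for Gmnn, -1.37 for Orc1, -0.922 for Orc2 and -1.1 for Orc6. For the clamp and its loader they were -0.594 for Pcna and -1.35 for Rfc4, and for primase -1.02 for Prim2. The lagging strand and single-strand binding genes gave -1.15 for Lig1, -1.12 for Fen1, -1.06 for Rpa1 and -0.807 for Rpa2. Nucleotide genes gave -1.07 for Rrm1, -1.47 for Rrm2 and -0.695 for Tyms, and the cyclins gave -3.04 for Ccne1 and -1.14 for Ccne2. Gmnn, Rfc4, Prim2, Lig1, Rrm1, Rrm2, Rpa2 and Ccne1 kept this call under each of the 23 alternatives. The least stable calls were those of Mcm4, lost under 16 of 23, Tyms, lost under 15, and Ccne2, lost under 13.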

How the results depend on the processing

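No member that passed changed sign under any alternative. With quantile normalization, 5 members were lower in Raptor KO, 3 higher and 1 lower (Rfc2) in Tsc2 KO, 13 below 0 and 1 above 0 in the difference of effects (median -0.40), and 7 lower with rapamycin than with SL0101. With a common library total, 5 were higher in Tsc2 KO, and the share of all called genes that was higher with rapamycin than with SL0101 was 38.6%, against 49.95% as reported. Without the expression trend and robust variances, 1 was lower in Raptor KO, 0 higher in Tsc2 KO, 10 below 0 in the difference, and 0 passed in the inhibitor comparisons. With voom weights, 5 were lower in Raptor KO and 23 lower with rapamycin than with SL0101. Without the filter, 5 were lower in Raptor KO. With only the groups compared in the fit, 15 were lower in Raptor KO, 0 higher in Tsc2 KO and 6 lower with rapamycin than with SL0101. The cause of these shifts was not tested.

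Libraries of the same number were not treated as pairs in the main fits. Their deviations correlated at 0.026, 0.045 and 0.013 in the Raptor line, and at 0.051, 0.047 and 0.004 between the Hoxb8 groups. In the Tsc2 line they correlated at 0.243, 0.278 and -0.035, a likeness of libraries that the main fit does not model. With a replicate block, 10 members were lower in Raptor KO, 9 higher in Tsc2 KO, 21 below 0 in the difference, 1 lower with rapamycin, 17 higher with SL0101 and 23 lower with rapamycin than with SL0101. A replicate block within each line, chosen after seeing the data, gave 15, 13 and 24 for the progenitor comparisons.

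With 1 library left out, 2 to 5 members were lower in Raptor KO (median -0.35 to -0.23), and 1 to 16 were higher and 0 to 1 lower in Tsc2 KO. The difference of effects had 10 to 24 below 0 (median -0.63 to -0.49). Rapamycin lowered 0 to 5, and the members' median was -0.0616 to 0.0191, turning positive without rapamycin replicate 1. SL0101 raised 2 to 5 (median 0.23 to 0.37), and rapamycin against SL0101 had 1 to 11 lower (median -0.48 to -0.29). Such fits have fewer samples by construction. The edgeR and DESeq2 alternatives were not run, because whole reads could not be recovered for every value. The voom fits did use values scaled back to fragments, including those that were not whole. Members with part fragments numbered 0, at a tolerance of 0.05 of a fragment.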

Other observations

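Among the genes outside the list whose pattern was most like the members' mean standardized level over 18 libraries were Actl6a, Psmd6, Ppm1g and Cep76, with Pearson r of 0.974, 0.941, 0.928 and 0.924 among 11287 genes compared. Of the members themselves, Rpa2 and Mcm5 were nearest to that mean, at 0.939 each, while Gins3 ran against it at -0.351. These values describe libraries that share their groups and their line, and carry no test.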
